A study of Mus musculus with 12 samples.

Results

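The antigen response that remained under inhibition of the kinase MEK was described in 6 of the 12 samples of the series, the 3 labelled TCR+MEKi and the 3 labelled Unstimulated, across all 11022 genes of the deposited FPKM table. All samples were cultures of mouse cytotoxic T lymphocytes (CTL), CD8 T cells that carried the transgenic P14 T cell receptor (TCR), which recognises a peptide of lymphocytic choriomeningitis virus. Spleen or lymph node cells of adult female P14 mice had been activated for 48 h with that peptide, interleukin 2 (IL-2) and interleukin 12. They were then expanded with IL-2 (20 ng per mL) to day 7. Unstimulated CTL received no further peptide. TCR+MEKi CTL received the peptide at 100 ng per mL for 4 h together with PD184252, a MEK inhibitor, at 2 µM. The 3 cultures of the TCR group, given the same peptide for 4 h without inhibitor, were used to show how much of a response was left. All cells shared 1 transgenic receptor and were kept in IL-2, and unstimulated CTL given the inhibitor were not analysed here. Where an mRNA lay higher or lower with antigen and inhibitor than in unstimulated CTL, these 2 groups cannot tell an effect of the antigen from an effect of the inhibitor on resting CTL.

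Antigen binding to the TCR starts several routes to the nucleus. A calcium route activates calcineurin and NFAT, a protein kinase C and CARMA1 route activates NF-kappaB, and the RAS, RAF and MEK route activates the ERK kinases, which drive immediate early genes such as the EGR and FOS families and their own feedback inhibitors of the DUSP and SPRY families. In CTL these routes meet at cytokine, chemokine and cytolytic genes.

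Values below are FPKM, given as mean ± SD with n = 3 samples, and changes are differences of log2(FPKM + 0.1) from limma. A gene was said to have risen or fallen where its Benjamini-Hochberg adjusted p over all 11022 genes was under 0.05 and the change was more than 2-fold. The effective depth, estimated from the steps between low values, ran from 9000000 to 9400000 reads in TCR+MEKi replicates 3 and 2, was lowest in TCR+MEKi replicate 1 (7700000) and ran from 10300000 to 13100000 in unstimulated CTL. Within groups, samples correlated at r between 0.992 and 0.995 across genes, although genes do not count as replicates. On a principal component plot, the first component (73.5% of the variance) set the unstimulated samples apart while the second (10.2%) set TCR+MEKi apart from the other 3 groups. The FPKM sum was 470420 to 495945 in unstimulated CTL, 524343 to 539350 in TCR+MEKi and 620715 to 666922 in TCR. All 10 CD8 T cell markers were measured and none was called, with Cd8a at 221 ± 8.01 FPKM in unstimulated CTL and 417 ± 14.96 in TCR+MEKi. No B cell marker (of 8) or erythroid marker (of 6) was in the table, and neither of 2 measured CD4 T cell markers was called (Cd4 at 0.773 ± 0.293 and 0.450 ± 0.193 FPKM). Of 3 myeloid and 4 NK cell markers measured, 1 of each fell, Fcgr3 from 1.19 ± 0.415 to 0.257 ± 0.155 FPKM and Klrb1c from 5.39 ± 0.826 to 1.59 ± 0.313, and their part in the results was not tested. Bulk mRNA does not tell fewer expressing cells from less mRNA per cell.

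With antigen and inhibitor together, 1478 genes differed from unstimulated CTL. Of these, 766 genes rose (6.95% of those tested) and 712 fell (6.46%) in TCR+MEKi. The TCR group, compared with the same unstimulated samples, had 978 genes that rose (8.87%) and 1224 that fell (11.1%). Set directly against TCR, TCR+MEKi had 108 genes called higher (0.98%) and 277 called lower (2.51%). All 3 TCR+MEKi samples lay above all 3 unstimulated samples for 32.7% of genes and below them for 34.0%, and above or below all 3 TCR samples for 24.6% and 24.1%. For TCR against Unstimulated these shares were 34.7% and 36.5%. The direction split moved with the scale: when every sample was rescaled to a common FPKM sum (TPM scale), 660 genes were called higher and 1003 lower, so that 39.7% of called genes rose in place of 51.8%, and the median of all genes shifted by -0.15 in TCR+MEKi against Unstimulated, by 0.26 in TCR+MEKi against TCR and by -0.41 in TCR against Unstimulated. On that scale 323 genes were called higher and 202 lower in TCR+MEKi than in TCR, and 647 rose and 2276 fell in TCR, so the balance of directions in all 3 comparisons rests on the scaling. Unless stated, differences from TCR given below and their intervals are on the deposited scale. They leave out the shift of 0.26, which is larger than many of the small differences.

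**Figure D1:**
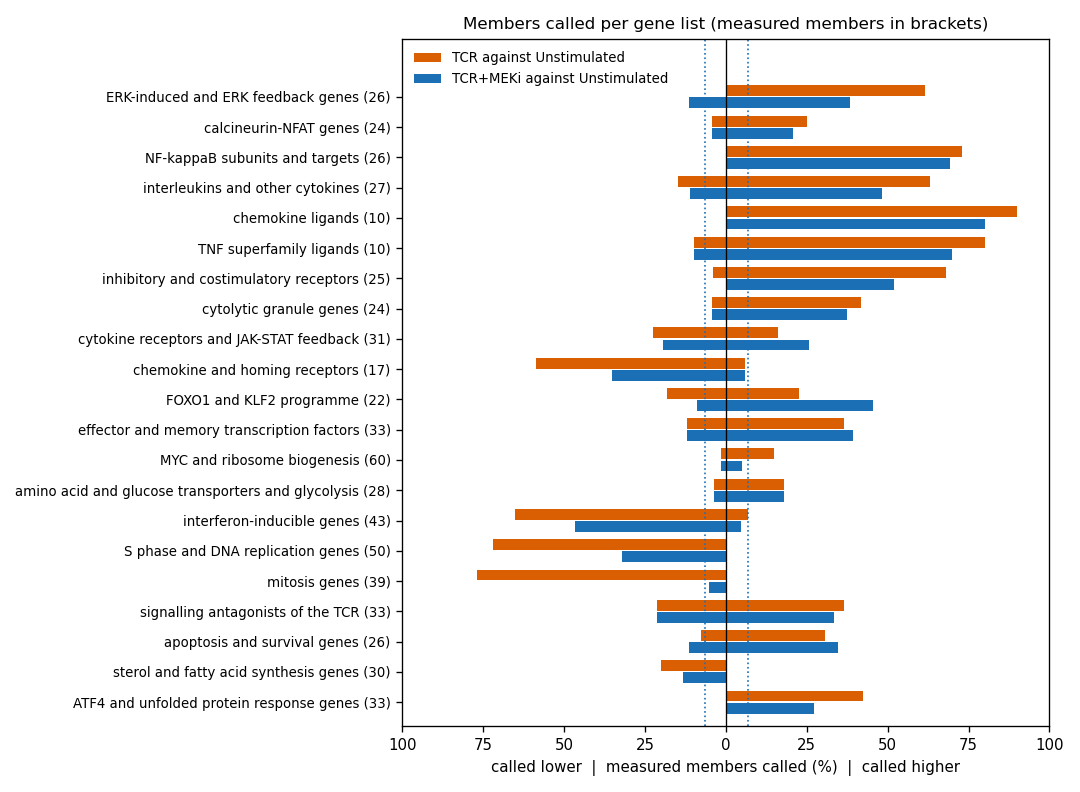
Percent of measured members of each gene list called higher (right) or lower (left) against Unstimulated, in TCR (orange) and TCR+MEKi (blue), with the share of all genes called in TCR+MEKi as dotted lines. In TCR+MEKi, rises were called in 8 of 10 measured chemokine ligands (19 listed) and in 18 of 26 NF-kappaB genes. Low counts had been removed before deposit. Chemokine ligands very low at rest, such as Ccl9 and Xcl1, could therefore hardly be measured here without a rise, so their share does not show a kept response. Mitosis genes called lower numbered 30 of 39 in TCR and 2 of 39 in TCR+MEKi, with median log2 changes of -1.18 and -0.72. None of the 39 was called between the 2 stimulated groups.

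The genes that report most directly on ERK were examined first. Of 26 measured ERK-induced and ERK feedback genes, 10 rose and 3 fell in TCR+MEKi against unstimulated CTL, beside 6.95% and 6.46% of all genes, with a median log2 change of 0.62 against -0.01 over all genes. In TCR the same list had 16 rises and no fall (median 1.28), and 14 of the 26 were called lower in TCR+MEKi than in TCR, beside 2.51% of all genes.

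Egr1, an immediate early transcription factor, lay far below its resting level. Its FPKM values were 36.4, 35.4 and 39.8 in unstimulated CTL, 76.3, 89.2 and 97.0 in TCR and 3.76, 5.51 and 4.13 in TCR+MEKi. The 3 groups did not overlap, and the change against unstimulated CTL was -3.05 (SE 0.12, adjusted p = 1.93e-11). Dusp6, the cytoplasmic ERK phosphatase, showed no such rise in TCR. It stood at 88.1, 87.0 and 88.7 FPKM in unstimulated CTL, 80.3, 90.0 and 87.6 in TCR and 22.7, 33.5 and 27.6 in TCR+MEKi. Unstimulated and TCR samples overlapped, and those with the inhibitor lay under all of them, with a change of -1.67 (SE 0.10, adjusted p = 1.71e-09). Spry4, a Sprouty inhibitor of RAS signalling, fell from 3.31 ± 0.535 to 1.23 ± 0.492 FPKM.

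Other ERK reporters were reduced against TCR and yet rose above rest. Egr2, whose product restrains T cell activation, was at 1.41, 1.52 and 1.47 FPKM in unstimulated CTL, 163, 175 and 178 in TCR and 25.02, 37.8 and 29.4 in TCR+MEKi. Every TCR+MEKi sample lay above every unstimulated one and below every TCR one, with a log2 change of 4.28 (SE 0.11, adjusted p = 2.24e-13) against rest and -2.50 against TCR. Its relative Egr3 reached 35.2 ± 8.28 FPKM, 40.4% of its TCR mean. Spry1 went from 0.283 ± 0.122 FPKM at rest to 14.8 ± 1.68, which is 30.5% of the TCR mean. Dusp4, a nuclear MAP kinase phosphatase, reached 25.4 ± 2.07 FPKM from 6.18 ± 1.03. Fos reached 3.33 ± 0.466 FPKM, 35.5% of TCR, and Fosb 0.577 ± 0.0306, 23.9% of TCR. Fosb was low throughout, at 0.127 FPKM on average at rest, and its call was lost with a pseudocount of 1 (0.4862). The list was not uniform: Junb, another AP-1 subunit, rose from 99.2 ± 2.41 to 209 ± 13.6 FPKM, and its difference from TCR was -0.11 (95% interval -0.35 to 0.13), though on the TPM scale the rise was under 2-fold (0.9243). Dusp2, which was at 285 ± 22.5 FPKM in TCR, stood at 88.4 ± 7.66 with the inhibitor, a change of 0.29 against its resting 72.7 ± 8.19 that did not pass the 2-fold limit.

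NFAT-linked genes were mixed. Of 24 measured calcineurin and NFAT genes, 5 rose and 1 fell in TCR+MEKi (median 0.40), beside 6.95% and 6.46% of all genes, against 6 and 1 in TCR. The rises included the 3 NR4A orphan nuclear receptors, which are early genes of TCR signalling. Nr4a3 was at 9.59, 12.1 and 8.31 FPKM in unstimulated CTL and at 204, 233 and 212 in TCR+MEKi, and its TCR values of 258, 302 and 323 lay above them (difference -0.44, adjusted p = 0.0126, under 2-fold). Nr4a1 reached 65.8 ± 1.06 FPKM from 0.753 ± 0.0321, and Nr4a2 reached 46.8 ± 2.00 from 3.75 ± 0.0416, each at 38.9% of its TCR mean and called lower than TCR. Cblb, an E3 ubiquitin ligase that dampens TCR signalling, rose from 28.5 ± 1.56 to 94.6 ± 5.42 FPKM. Nfatc2, an NFAT family member, fell from 30.6 ± 0.925 to 8.12 ± 0.841. Rcan1, a calcineurin regulator, was at 3.99 ± 0.187 at rest and 5.24 ± 1.05 with antigen and inhibitor, and was not called.

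Most NF-kappaB genes rose. Of 26 measured subunits and targets, 18 rose and none fell in TCR+MEKi, beside 6.95% and 6.46% of all genes, with a median of 1.68. In TCR 19 rose, with a median also of 1.68, and 3 were called lower in TCR+MEKi than in TCR, beside 2.51% of all genes. Among the inhibitors, Nfkbia, which encodes IκBα and holds NF-kappaB in the cytoplasm, was at 12.6, 11.7 and 13.5 FPKM in unstimulated CTL, 98.9, 86.5 and 94.2 in TCR and 88.1, 84.6 and 92.3 in TCR+MEKi. The stimulated groups overlapped, and their difference was -0.08 (95% interval -0.21 to 0.06). Among the subunits, Relb reached 53.3 ± 1.33 FPKM from 7.41 ± 0.877 (difference from TCR 0.08, interval -0.10 to 0.26), and Nfkb2 reached 118 ± 2.92 from 18.3 ± 0.940. Rel, the subunit most tied to T cell cytokine genes, was the least preserved of the 5 subunit genes, at 46.0, 52.6 and 42.8 FPKM in TCR+MEKi against 77.1, 106 and 95.3 in TCR, with 3.68 ± 0.3005 at rest. Its samples did not overlap with TCR, with a difference of -0.97, just inside 2-fold. Tnfaip3, encoding the deubiquitinase A20, rose from 3.68 ± 0.170 to 72.6 ± 3.11 FPKM, 80.3% of TCR. The 3 targets called lower than TCR were Cd83, Bcl2a1b and Bcl2a1d. Of the 100-base stretches of Bcl2a1b and Bcl2a1d transcripts, 56.8% and 54.7% also occur in another gene, so these values are uncertain.

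**Figure D2:**
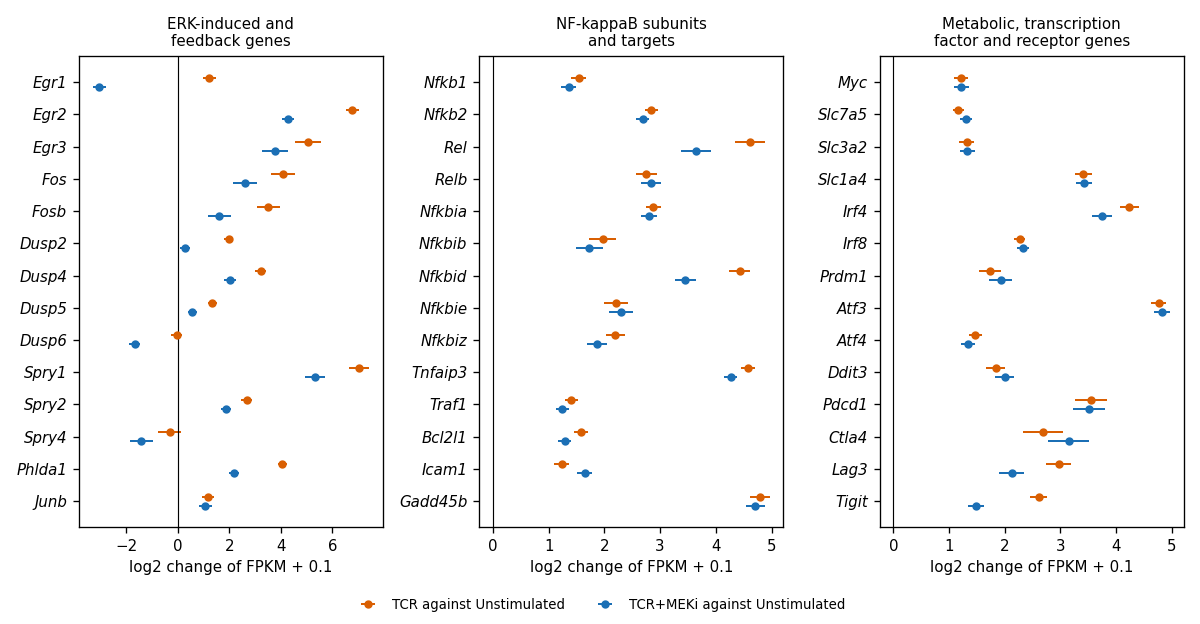
log2 change of FPKM + 0.1 against Unstimulated in TCR (orange) and TCR+MEKi (blue), with 95% intervals from limma, for 14 genes in each of 3 panels. Egr1, Dusp6 and Spry4 lay below 0 with the inhibitor, and for Nfkbia (2.88 and 2.80), Myc (1.22 and 1.22) and Pdcd1 (3.55 and 3.52) the changes were almost the same in the 2 groups.

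The promoters of 4 genes of these contrasting kinds are shown, from 250 bases before to 50 after the RefSeq transcript start (GRCm38.p6), written 5′ to 3′ on the gene's strand. For Nfkb2 the window lies inside the gene, whose listed position runs from 46300994 to 46312400. Il2 and Ccl1 were called lower with the inhibitor than in TCR, while Nfkbia and Nfkb2 were not. Capitals mark, on either strand, the NFAT core GGAAAA in Il2 and Ccl1 and the NF-kappaB core GGGANTT in Il2, Nfkbia and Nfkb2, where in Nfkb2 2 matches overlap.
Il2, chr3:37125905-37126204, minus strand: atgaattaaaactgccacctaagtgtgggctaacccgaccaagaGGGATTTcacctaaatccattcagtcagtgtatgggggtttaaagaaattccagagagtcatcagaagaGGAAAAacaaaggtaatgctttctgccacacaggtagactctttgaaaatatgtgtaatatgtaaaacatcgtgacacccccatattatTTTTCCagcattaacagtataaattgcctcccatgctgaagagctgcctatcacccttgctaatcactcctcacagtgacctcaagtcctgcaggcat
Ccl1, chr11:82179763-82180062, minus strand: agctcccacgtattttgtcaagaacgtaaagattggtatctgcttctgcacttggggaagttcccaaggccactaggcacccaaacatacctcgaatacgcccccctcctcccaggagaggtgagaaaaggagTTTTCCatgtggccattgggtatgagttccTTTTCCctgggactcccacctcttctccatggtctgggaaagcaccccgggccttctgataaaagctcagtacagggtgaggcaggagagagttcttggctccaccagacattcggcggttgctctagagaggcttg
Nfkbia, chr12:55492598-55492897, minus strand: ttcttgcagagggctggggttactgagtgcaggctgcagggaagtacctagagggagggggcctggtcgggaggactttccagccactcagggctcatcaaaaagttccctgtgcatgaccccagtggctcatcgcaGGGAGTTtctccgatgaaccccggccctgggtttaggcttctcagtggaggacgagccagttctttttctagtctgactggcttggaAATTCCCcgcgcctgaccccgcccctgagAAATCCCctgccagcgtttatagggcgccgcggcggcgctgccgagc
Nfkb2, chr19:46304487-46304786, plus strand: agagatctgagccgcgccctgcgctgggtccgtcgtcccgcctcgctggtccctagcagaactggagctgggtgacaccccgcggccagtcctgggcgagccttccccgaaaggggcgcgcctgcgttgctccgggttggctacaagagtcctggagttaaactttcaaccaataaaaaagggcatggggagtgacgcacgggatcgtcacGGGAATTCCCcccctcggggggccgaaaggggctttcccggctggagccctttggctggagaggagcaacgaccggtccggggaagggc
None of the 4 windows held the AP-1 motif TGANTCA or the ETS core CCGGAAG. Of 8333 genes of the table with a promoter sequence, 20.7% held the NFAT core, 17.6% the NF-kappaB core, 4.79% the AP-1 motif and 20.0% the ETS core. Among the 189 promoters of genes called lower in TCR+MEKi than in TCR these shares were 20.6%, 18.0%, 12.7% and 5.82%. Among the 552 promoters of genes that rose in TCR+MEKi against unstimulated CTL they were 23.4%, 17.4%, 8.70% and 8.51%. The shares are a description of letters in these windows and were not tested.

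Cytokine genes are given next, with chemokine and TNF family ligands after them. Of 35 listed interleukin and other cytokine genes, 27 were measured. Of these, 13 rose and 3 fell in TCR+MEKi (median 0.96), beside 6.95% and 6.46% of all genes, against 17 and 4 in TCR (median 3.14). Low counts had been removed before deposit, so a gene near 0 at rest can be in the table only through its stimulated samples. For such genes, here and wherever else they are given, a rise against rest was close to fixed in advance. Of the 27, 14 were called lower in TCR+MEKi than in TCR, beside 2.51% of all genes. Il3, a growth factor for myeloid progenitors (chromosome 11, 54265085 to 54267279), was at 0.1, 0 and 0.180 FPKM in unstimulated CTL, 2850.1, 2346 and 2195 in TCR and 679, 930.3 and 677 in TCR+MEKi. Every stimulated sample lay far above rest, where all 3 samples were at or under 3 approximate reads, and TCR+MEKi was at least 1837-fold higher than the level 3 reads stand for. It still lay below TCR (difference -1.70, SE 0.26, adjusted p = 0.000145). Ifng, the main macrophage-activating cytokine of CTL (chromosome 10, 118441046 to 118445894), stayed among the most abundant of them. Its FPKM values were 68.6, 74.9 and 73.8 at rest, 31000, 29548 and 28243 in TCR and 15627, 18253 and 15972 in TCR+MEKi. The TCR+MEKi samples lay between the other groups, at 56.1% of the TCR mean, with a change of 7.84 (SE 0.09, adjusted p = 1.85e-17) against rest.

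Il2, Csf2 and Tnf were reduced much further. Il2, the autocrine T cell growth factor (chromosome 3, 37120713 to 37125954), was at 0.190, 0 and 0 FPKM at rest, 649, 704 and 763 in TCR and 33.0, 67.1 and 51.9 in TCR+MEKi. Its TCR+MEKi mean was 7.18% of TCR, a difference of -3.85 (SE 0.34, adjusted p = 9.45e-07), and at least 222-fold above the level of 3 reads. Of the Il2 transcript's 100-base stretches, 8.42% are shared with Ntan1. Csf2, encoding GM-CSF, stood at 3.45, 3.34 and 4.08 FPKM at rest, 3211, 3106 and 3299 in TCR and 258, 451 and 332 in TCR+MEKi, or 10.8% of TCR. Tnf was at 63.0 ± 7.02, 3252 ± 266 and 409 ± 147 FPKM in the same order, or 12.6% of TCR. In all 3 genes replicate 2 was the highest of the TCR+MEKi samples, and no sample of one group reached the range of another. In the neighbouring locus of Tnf, Lta was not called against rest (130 ± 10.8 and 100.9 ± 20.9 FPKM, beside 395 ± 33.1 in TCR), and Ltb fell from 46.6 ± 0.656 to 18.8 ± 2.35.

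Il10, an anti-inflammatory cytokine, reached 1437 ± 134 FPKM with the inhibitor from 122 ± 27.4, at 40.5% of TCR. Il27 was listed at 0 in all unstimulated samples and at 0, 0.590 and 0 FPKM in TCR+MEKi against 5.58 ± 1.13 in TCR. Il1a, likewise listed at 0 at rest, stood at 0.260 ± 0.192 against 6.73 ± 1.09 in TCR. Il22, which acts on epithelial cells, went the other way. It was listed at 0 in all unstimulated samples, at 8.01, 5.00 and 4.97 FPKM in TCR and at 13.9, 10.3 and 10.97 in TCR+MEKi. All TCR+MEKi samples lay above all TCR ones, with a difference of 0.98 (SE 0.20, adjusted p = 0.0016) that stopped short of 2-fold. Of its 100-base stretches, 20.4% also occur in Iltifb. Lif, an IL-6 family cytokine, fell from 64.4 ± 3.45 to 30.1 ± 3.32 FPKM, and Flt3l fell by 1.57 on the log2 scale, to within 0.01 of its level in TCR.

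Of 19 listed chemokine ligands, 10 were measured. Of these, 8 rose and none fell in TCR+MEKi (median 5.19), beside 6.95% of all genes that rose, against 9 and none in TCR (median 7.15). Members near 0 at rest, such as Ccl9 and Xcl1, could hardly be in the table without a rise. Against TCR, 7 were called lower and 1 higher, beside 2.51% and 0.98% of all genes. Ccl3 and Ccl4, which draw T cells and monocytes, were among the most abundant mRNAs of the stimulated cells. Ccl3 (chromosome 11, 83647843 to 83649378) was at 6.09, 4.61 and 6.58 FPKM at rest, 20769, 18210.1 and 18245 in TCR and 6564, 8154 and 6474 in TCR+MEKi. The inhibitor group thus kept 37.0% of the TCR mean, and its change against rest was 10.24 (SE 0.12, adjusted p = 1.85e-17). Ccl4 kept 40.4%. Ccl1, a ligand of CCR8, rose from 0.563 ± 0.168 to 1651 ± 267 FPKM, 29.5% of TCR. Xcl1, which attracts cross-presenting dendritic cells, was reduced more, at 710.5, 1134 and 777 FPKM against 6960, 6626 and 6403 in TCR and 0.490 ± 0.282 at rest. Ccl5 reached 82.3 ± 10.3 FPKM, 16.5% of TCR. Ccl9 was listed at 0 in all unstimulated samples and reached 37.4 ± 2.80. Cxcl10, an interferon-inducible ligand of CXCR3, was the chemokine called higher than TCR, at 6.0, 4.94 and 5.47 FPKM against 2.61, 2.01 and 3.52.

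**Figure D3:**
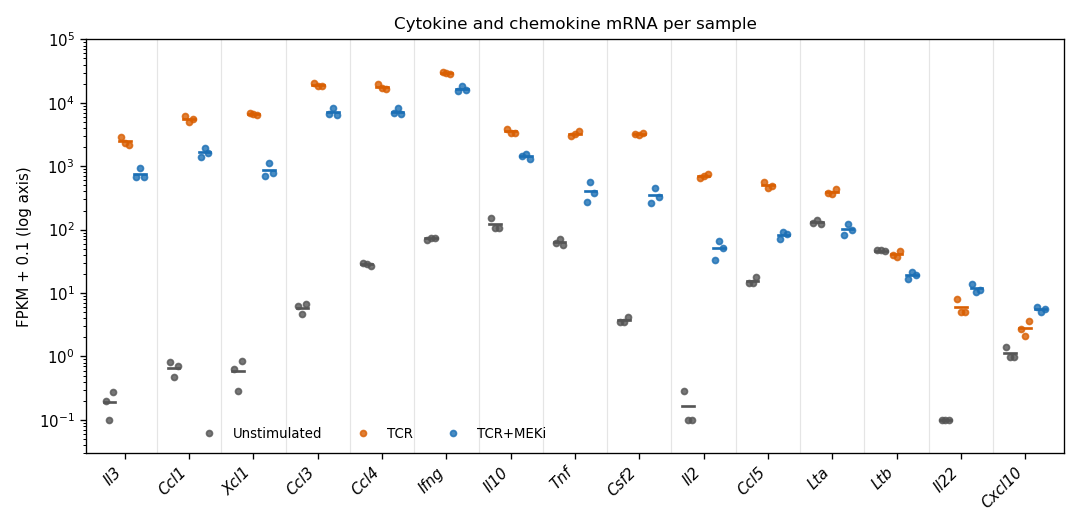
FPKM + 0.1 on a log axis for 15 cytokine and chemokine genes, with a point per sample and a bar at the mean of 3 samples in Unstimulated (grey), TCR (orange) and TCR+MEKi (blue). Ifng kept 56.1% and Il2 7.18% of the TCR mean, Ltb lay below rest, and Il22 and Cxcl10 lay above TCR.

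TNF superfamily ligands also rose in TCR+MEKi, 7 of 10 measured (13 listed), with 1 fall (median 2.81), beside 6.95% and 6.46% of all genes. Of the 10, 4 were called lower than TCR, beside 2.51% of all genes. Tnfsf14 (LIGHT) rose from 3.25 ± 0.216 to 128 ± 7.92 FPKM, 51.2% of TCR. Cd40lg, which licenses dendritic cells and B cells, rose from 1.16 ± 0.330 to 39.3 ± 3.13, 35.2% of TCR. Tnfsf4 (OX40 ligand) was at 49.8, 51.1 and 57.5 FPKM in TCR+MEKi against 30.3, 45.6 and 46.6 in TCR and 5.12 ± 0.765 at rest, so that no inhibitor sample overlapped with TCR, although the difference of 0.39 was under 2-fold. Fasl, the death ligand of CTL, was at 33.0 FPKM on average at rest and 36.6 with the inhibitor, and was not called in either comparison.

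Inhibitory and costimulatory receptors rose in 13 of 25 measured cases and none fell (median 1.04), beside 6.95% and 6.46% of all genes. In TCR the counts were 17 and 1. Of the 25, 2 were called lower and 1 higher than TCR, beside 2.51% and 0.98% of all genes. Pdcd1, encoding the checkpoint receptor PD-1 (chromosome 1, 94038305 to 94052553), was at 23.4, 17.9 and 13.4 FPKM at rest, 227, 205 and 199 in TCR and 213, 203 and 199 in TCR+MEKi. The stimulated groups overlapped, with a difference of -0.04 (95% interval -0.33 to 0.25). Ctla4, a second checkpoint receptor, was at 303, 223 and 234 FPKM in TCR+MEKi against 215, 179 and 159 in TCR, a difference of 0.46 (adjusted p = 0.0467, under 2-fold). Members of the class lay on both sides of TCR. Cd226, an activating receptor, was the one called higher, at 9.69, 9.20 and 9.59 FPKM against 3.91, 4.01 and 4.06 in TCR, and was not called against its resting 11.2 ± 1.77. Icos, a costimulatory receptor, was at 86.4 ± 14.2 FPKM against 48.8 ± 2.72 in TCR, a difference of 0.81 that was under 2-fold. Lag3 reached 140 ± 11.003 FPKM, 55.4% of TCR, from 32.0 ± 1.92, and was not called between them. Tigit reached 55.2 ± 3.55, 45.7% of TCR, and Cd160 48.4 ± 5.81, 25.8% of TCR, and these were the 2 called lower than TCR. The rise of Cd160 against rest passed 2-fold narrowly and was lost on the TPM scale (0.89) and without TCR+MEKi replicate 2 (0.944) or Unstimulated replicate 2 (0.9719).

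Of 24 measured cytolytic granule genes, 9 rose and 1 fell in TCR+MEKi (median 0.41), beside 6.95% and 6.46% of all genes, and 10 and 1 did so in TCR. The 1 called lower than TCR is near the 2.51% of all genes. Gzmb, the main granzyme, was at 9460.4, 8481 and 8279 FPKM at rest, 13582, 12790 and 12645 in TCR and 12408, 12235 and 12338 in TCR+MEKi. The stimulated groups lay above rest, neither change reached 2-fold (against rest 0.50 in TCR+MEKi, and -0.31 after quantile normalisation), and the difference from TCR was -0.08 (interval -0.28 to 0.12). Gzmc rose from 442 ± 18.2 to 1448 ± 110 FPKM, beside 1379 ± 149 in TCR (difference 0.07, interval -0.15 to 0.29). Prf1, encoding the pore former perforin, rose to 1471 ± 37.5 FPKM in TCR but stood at 937 ± 59.2 with the inhibitor from 655 ± 31.8, which was not called. The gene called lower than TCR was Serpinb6b, a granzyme inhibitor family member, at 288 ± 30.6 FPKM against 865 ± 62.8.

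Transcription factors of effector fate divided. Of 33 measured, 13 rose and 4 fell in TCR+MEKi, beside 6.95% and 6.46% of all genes (12 and 4 in TCR). Against TCR, 2 were called lower and 2 higher, beside 2.51% and 0.98% of all genes. Irf4, which scales with TCR signal strength, was at 23.6, 20.1 and 20.6 FPKM at rest, 387, 429.6 and 402 in TCR and 272, 321 and 277 in TCR+MEKi. It kept 71.4% of the TCR mean. Irf8 reached 425 ± 12.5 FPKM beside 409 ± 13.8 in TCR (difference 0.06, interval -0.05 to 0.16), and Prdm1, encoding BLIMP-1, reached 21.2 ± 1.34 beside 18.6 ± 1.18. Tbx21, encoding T-bet, the factor that drives type 1 effector genes, was reduced: its FPKM values were 14.7, 12.3 and 13.8 at rest, 58.6, 45.5 and 54.9 in TCR and 24.6, 23.8 and 24.1 in TCR+MEKi. It was called lower than TCR (-1.12, adjusted p = 2.49e-06), and its 0.83 above rest was under 2-fold. Eomes was at 73.2 ± 3.72 at rest and 75.4 ± 4.78 with the inhibitor, beside 109 ± 3.09 in TCR. Zeb2 was the other factor called lower than TCR, at 2.89 ± 0.433 against 6.48 ± 0.549 FPKM. Id3, a memory-associated inhibitor of E proteins, fell from 6.51 ± 1.22 to 0.783 ± 0.106 beside 0.710 ± 0.0693 in TCR.

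Metabolic genes were examined next. Myc, the driver of T cell growth (chromosome 15, 61985341 to 61990361), was at 126, 125 and 122 FPKM at rest, 298, 267 and 306 in TCR and 278, 287 and 305 in TCR+MEKi. The stimulated groups overlapped fully and differed by 0.00 (95% interval -0.13 to 0.13), while the change against rest was 1.22 (SE 0.06, adjusted p = 3.24e-10). The amino acid transporter subunits Slc7a5 and Slc3a2 rose to 297 ± 11.3 and 199 ± 8.90 FPKM, against 272 ± 7.42 and 197 ± 14.4 in TCR. Slc1a4, a neutral amino acid transporter, rose from 3.36 ± 0.0551 to 37.0 ± 2.39 FPKM (difference from TCR 0.00, interval -0.14 to 0.15). Over the whole list of 28 transporters and glycolysis genes, 5 rose and 1 fell in TCR+MEKi as in TCR, beside 6.95% and 6.46% of all genes in TCR+MEKi, and none was called between them. Of 60 MYC and ribosome biogenesis genes, 3 rose and 1 fell, shares below the 6.95% and 6.46% of all genes, against 9 and 1 in TCR. The list still lay above rest by less than 2-fold, with a median of 0.42 in TCR+MEKi and 0.71 in TCR. The median over all genes was -0.01 in each comparison. Slc2a1, the main glucose transporter, was at 54.2 and 33.9 FPKM on average and was not called.

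By the naming rule, the largest rises among genes within 0.2 of TCR on the log2 scale were Tnip3, Lad1, Atf3, Cd33, Gadd45b and Zbtb46. Atf3, a stress-responsive AP-1 family factor, was at 1.80, 1.94 and 2.02 FPKM at rest, 56.3, 54.9 and 53.2 in TCR and 59.2, 54.5 and 58.4 in TCR+MEKi. Gadd45b, a stress and NF-kappaB target, reached 176 ± 7.05 FPKM from 6.65 ± 0.628, beside 186 ± 18.0 in TCR. Their differences from TCR were 0.07 (interval -0.07 to 0.20) and -0.08 (interval -0.25 to 0.10). Small differences were fixed by the choice of genes within 0.2 of TCR, so they do not show that the inhibitor had no effect. Tnip3 reached 20.6 ± 2.75 FPKM from 0.0667 ± 0.0611, Cd33 2.92 ± 0.816 from 0.01 ± 0.0173 and Zbtb46 3.11 ± 0.365 from 0.0267 ± 0.00577, and Lad1, listed at 0 in all 3 unstimulated samples, was at 4.17 ± 0.512. Tnip3, Cd33, Zbtb46 and Lad1 were at or near 0 at rest and could hardly be in the table without a rise.

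Among the falls, interferon-inducible genes stood out by count. Of 43 measured, 20 fell and 2 rose in TCR+MEKi (median -0.93), beside 6.46% and 6.95% of all genes, and 28 fell and 3 rose in TCR. The GTPases Gbp4 and Igtp, which act against intracellular pathogens, fell from 127 ± 4.99 to 37.7 ± 1.78 and from 240 ± 9.37 to 70.1 ± 7.05 FPKM. Iigp1 fell from 64.0 ± 6.51 to 5.36 ± 0.896. Oasl1 and Rsad2 were the 2 that rose. The interferon-gamma receptor chain Ifngr1 fell from 195 ± 6.45 to 96.3 ± 2.69 FPKM, beside 50.1 ± 1.24 in TCR. That call sat at the 2-fold limit and was lost without TCR+MEKi replicate 2 (-0.9945) or Unstimulated replicate 1 (-0.9952).

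Of 50 measured S phase and replication genes, 16 fell and none rose in TCR+MEKi (median -0.86), beside 6.46% of all genes that fell, against 36 and none in TCR, where 11.1% of all genes fell. Of 39 mitosis genes, 2 fell in TCR+MEKi, a share no higher than the 6.46% of all genes, with a median of -0.72, against 30 in TCR. Between TCR+MEKi and TCR, 1 of the 50 and none of the 39 was called, beside 3.49% of all genes. Mcm3, a subunit of the replicative helicase, was at 102, 106 and 105 FPKM at rest, 34.8, 33.8 and 34.8 in TCR and 39.7, 42.9 and 43.3 in TCR+MEKi. The 3 groups did not overlap, with a change of -1.32 (SE 0.05) against rest and 0.28 (adjusted p = 0.000504, under 2-fold) against TCR. Mki67 was at 52.1 ± 1.96, 16.1 ± 2.53 and 26.2 ± 0.678 FPKM in the same order, and its change of -0.99 against rest stood just inside the 2-fold limit. Ccnd3, encoding cyclin D3, fell from 242 ± 17.8 to 49.3 ± 4.03. E2f2, which activates S phase genes, was the member called higher than TCR, at 2.80 ± 0.478 against 1.23 ± 0.0200 FPKM, with 8.85 ± 0.130 at rest. On the TPM scale the counts of falls in TCR+MEKi were 26 of 50 and 10 of 39.

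Of 31 cytokine receptor and JAK-STAT feedback genes, 8 rose and 6 fell in TCR+MEKi, beside 6.95% and 6.46% of all genes, against 5 and 7 in TCR. Against TCR, 3 were called higher and 1 lower, beside 0.98% and 2.51% of all genes. Receptors for chemokines and homing signals fell in 6 of 17 measured cases and 1 rose (median -0.82), beside 6.46% and 6.95% of all genes, against 10 and 1 in TCR. Ccr2, a receptor for inflammatory chemokines, fell from 194 ± 7.60 to 25.6 ± 1.63 FPKM, beside 34.2 ± 5.53 in TCR. Ccr4 behaved otherwise: it was at 9.81, 5.33 and 5.86 FPKM at rest, 1.88, 1.34 and 1.39 in TCR and 8.97, 4.16 and 6.24 in TCR+MEKi. Unstimulated and inhibitor samples overlapped, and the difference from TCR was 1.95 (SE 0.28, adjusted p = 0.000109). Ccr7, the lymph node homing receptor, was the 1 that rose, to 44.5 FPKM on average from 21.1, and on the TPM scale none of the 17 rose. Its call was also lost without TCR+MEKi replicate 1 (0.9199) or Unstimulated replicate 1 (0.987).

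Some mRNAs were higher with antigen and inhibitor than with antigen alone. Without unstimulated CTL given the inhibitor, whether these higher levels needed antigen cannot be told. Of 22 measured genes linked to FOXO1 and KLF2, factors of quiescence and recirculation, 10 rose and 2 fell in TCR+MEKi, beside 6.95% and 6.46% of all genes. In TCR the counts were 5 and 4. Of the 22, 5 were called higher and none lower than TCR, beside 0.98% and 2.51% of all genes. Klf2 itself was at 1.23, 1.32 and 1.58 FPKM at rest, 1.41, 0.940 and 0.950 in TCR and 4.47, 4.78 and 5.18 in TCR+MEKi. Rest and TCR overlapped, and every inhibitor sample lay above both, with changes of 1.74 (SE 0.21, adjusted p = 3.83e-06) against rest and 2.05 against TCR. Il7r, the IL-7 receptor, was at 24.9, 19.6 and 24.4 FPKM with the inhibitor against 9.99, 10.2 and 10.5 in TCR (difference 1.15), and was not called against rest (13.1 ± 3.597). Satb1, a chromatin organiser, rose from 23.3 ± 2.66 to 67.0 ± 4.77 FPKM beside 32.5 ± 1.54 in TCR. Pik3ip1, an inhibitor of PI3K, was at 3.80 ± 0.231 at rest, 0.467 ± 0.0289 in TCR and 1.14 ± 0.218 in TCR+MEKi, called lower than at rest and higher than in TCR.

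Stat3, the transcription factor for IL-6 and IL-10 family cytokines, rose from 57.2, 54.0 and 50.7 FPKM at rest to 205.2, 203.6 and 205.3, beside 97.9, 102 and 101.04 in TCR. No groups overlapped, and the difference from TCR was 1.03 (SE 0.05, adjusted p = 3.93e-09). Ptpn6, encoding the inhibitory phosphatase SHP-1, rose from 20.8 ± 0.110 to 70.0 ± 4.88 FPKM beside 30.7 ± 2.43 in TCR. Il12rb2, a chain of the IL-12 receptor, was at 119 ± 18.9 with the inhibitor against 41.6 ± 1.22 in TCR (1.502, adjusted p = 8.12e-08), and was not called against 69.0 ± 10.2 at rest. By the naming rule, the largest rises that also exceeded TCR were 1810009J06Rik, AI836003, Jag1, Serpinc1, Zhx2 and A930024E05Rik. Of these, 67.6% of the 100-base stretches of 1810009J06Rik also occur in Gm2663, and exons of Serpinc1 and A930024E05Rik lie opposite those of Zbtb37 and Kdm2b, so their values are uncertain where counting ignored strand, which is not stated. The same holds for Csf2, Xcl1, Cxcl10, Il27, Il1a, Nfkb2, Junb, Spry1, Ccnd3, Il12rb2, Stat3, Ptpn6, Satb1, Cd160, Oasl1, Pik3ip1, Zeb2, Eomes, Gcnt2, Slc2a1, Ddit3, Rgs16 and Lss, each with an exon opposite another gene's. Other genes share 12.4% of the 100-base stretches of Ifng, 15.9% of Flt3l, 10.8% of Klrb1c, 5.16% of Igtp and 1.64% of Gbp4. Zhx2, a transcriptional repressor, was at 0.617 ± 0.133 at rest, 2.20 ± 0.272 in TCR and 5.13 ± 0.401 FPKM in TCR+MEKi, and Jag1, a Notch ligand, at 0.0200 ± 0.0173, 0.403 ± 0.0907 and 1.09 ± 0.0755. Jag1, near 0 at rest, could hardly be in the table without a rise.

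**Figure D4:**
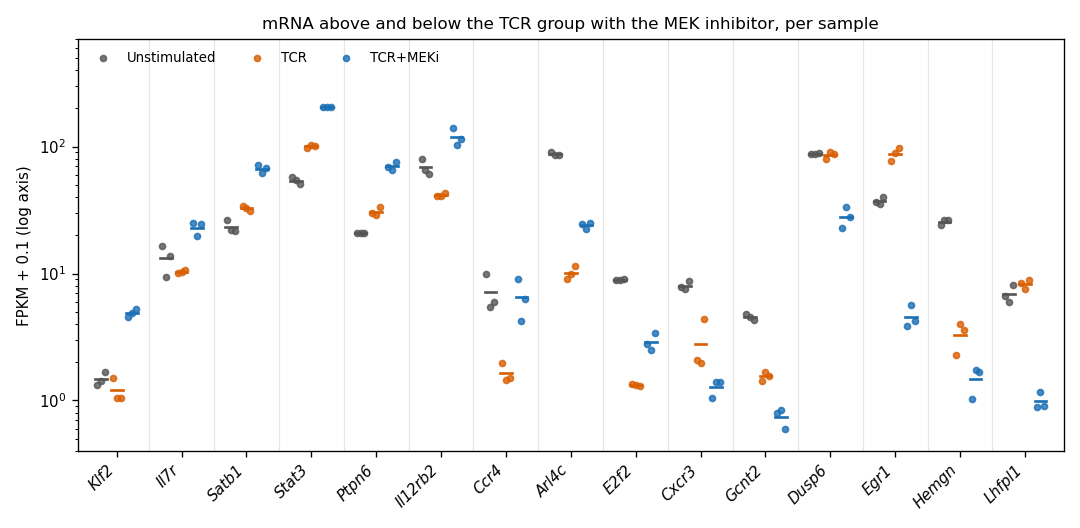
FPKM + 0.1 on a log axis for 15 genes that were called different between TCR+MEKi and TCR, with a point per sample and a bar at the mean of 3 samples in Unstimulated (grey), TCR (orange) and TCR+MEKi (blue). Klf2, Satb1, Stat3 and Ptpn6 lay above both other groups with the inhibitor, and Cxcr3, Gcnt2, Dusp6, Egr1, Hemgn and Lhfpl1 lay below both.

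The opposite corner held mRNAs below both rest and TCR. By the naming rule these were Hemgn, Tmem37, Egr1, Lhfpl1, Cxcr3 and Gcnt2. Hemgn, a nuclear protein known from blood progenitors, was at 23.9, 26.5 and 26.1 FPKM at rest, 2.17, 3.88 and 3.49 in TCR and 0.930, 1.63 and 1.56 in TCR+MEKi, and had the largest named fall (-4.16, SE 0.25, adjusted p = 1.95e-09). Lhfpl1 differed in kind, since antigen alone did not lower it: it was at 6.58, 5.84 and 7.98 FPKM at rest, 8.26, 7.50 and 8.74 in TCR and 0.790, 1.06 and 0.800 in TCR+MEKi. Rest and TCR overlapped, and the inhibitor samples lay below both (-2.81 against rest and -3.08 against TCR). Cxcr3, the receptor for Cxcl10, was at 7.93 ± 0.612, 2.70 ± 1.34 and 1.18 ± 0.199 FPKM, and Gcnt2, a glycosyltransferase, at 4.45 ± 0.220, 1.45 ± 0.125 and 0.647 ± 0.129. Fgl2, an immunoregulatory secreted protein, was among falls that lay within 0.2 of TCR on the log2 scale. It went from 243 ± 11.1 at rest to 22.4 ± 2.44 FPKM beside 19.8 ± 3.93 in TCR (difference 0.19, interval -0.07 to 0.45). That limit is part of the naming rule, so the small difference does not show that the inhibitor had no effect.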

How the data were processed

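mRNA of 12 samples in 4 groups of 3 had been sequenced with a stranded poly(A) library kit, paired-end, on 1 lane. Per the labels and methods, the authors aligned reads with STAR 2.4.2a to mm10, counted them per RefSeq gene with Subread 1.5.0, removed low counts, scaled by TMM in edgeR and deposited FPKM (RPKM function, non-overlapping exon length). Whether counting used strand is not stated.

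From the FPKM, log2(FPKM + 0.1) of all 11022 genes was fitted with 1 mean per group over all 12 samples in limma 3.58.1 (R 4.3.3, eBayes with trend). The pseudocount understates changes of low genes. Fold changes therefore are on the log2(FPKM + 0.1) scale. Genes and lists were chosen with earlier results of these data known. Comparisons against Unstimulated share its samples, and those with TCR+MEKi share that group's. The fit was tested on simulated data. Lists hold the members by function (21 lists and 6 marker lists). Named genes were the 12 largest rises and 12 largest falls in TCR+MEKi against Unstimulated (groups not overlapping, mean FPKM of at least 1 in a group), the 6 largest each way also called in the same or the opposite direction against TCR, the 6 largest each way within 0.2 of TCR on the log2 scale, and from each list its fixed sentinels and 4 top members. Genes given outside this rule were chosen after their values were seen.

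Depth was estimated from steps between low FPKM of genes of known exon length. Only 40.6% to 56.9% of low values lay within 0.15 of a whole read, so reads are approximate, no count test was run on them as a main result, and floors of 3 reads cover counting error only. The replicates came from 3 mice; whether equal numbers mark the same mouse is not stated. Deviations from group means correlated at 0.117, 0.140 and 0.147 for same-numbered Unstimulated and TCR+MEKi samples (9899 genes) and at -0.035 to -0.093 for others, so a replicate block was tried. Other alternatives were pseudocounts of 1 and 0.01, a mean FPKM of at least 1, the TPM scale, quantile normalisation, the compared groups only, no trend, no fold threshold, limma treat, each replicate left out, and, added after seeing the data, voom on approximate reads. Positions and promoters are RefSeq on GRCm38.p6, the first listed start of a gene, which for Nfkb2 was not its outermost. The NF-kappaB core was added to the motifs after the values were seen. Shared stretches and exon overlaps are from GENCODE M21. Some genes are not reported here. The PI3K inhibitor group entered the fit and is not reported here. Python 3.11.15, NumPy 2.4.6, pandas 2.3.3 and matplotlib 3.10.9 were used.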

Additional observations from a re-analysis of the deposited data

How the results depend on the processing

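Depth limits mRNAs near 0 FPKM, and with 3 samples a group a modest change can be missed. Over 228 named genes in TCR+MEKi against Unstimulated, a pseudocount of 1 ended 12 calls (among them Spry4, Fosb, Il1a, Oasl1, Rsad2 and Fcgr3), and the TPM scale ended 4 and added 3. Of 1368 values with 1 sample left out, 10 lost a call and 7 gained one. With the replicate block 765 genes rose and 713 fell, no named gene's call changed, and TCR+MEKi against TCR gave 112 and 277. With a pseudocount of 1 the counts in TCR+MEKi against Unstimulated were 489 and 384, with no fold threshold 3190 and 3381, and with treat 480 and 259. In TCR+MEKi against TCR they were 29 and 172, 2080 and 2010, and 6 and 100 under the same settings, and 323 higher on the TPM scale. In TCR against Unstimulated, 718 fell with a pseudocount of 1, 647 rose and 2276 fell on the TPM scale, 3707 and 3852 were called with no fold threshold and 635 and 539 with treat. Leaving out each replicate gave 761 to 784 higher and 701 to 751 lower in TCR+MEKi against Unstimulated, 102 to 140 and 275 to 300 in TCR+MEKi against TCR, and 971 to 997 and 1201 to 1271 in TCR against Unstimulated. The added voom fit gave 826 and 784, 149 and 305, and 1019 and 1304. Uncalled values changed sign for Ccr4 (-0.3974 to 0.1477 over samples left out), Cish (-0.1115 to 0.0351), Eomes (-0.0076 to 0.0819, -0.11 on the TPM scale, -0.0041 after quantile normalisation), Fasl (-0.0024 on the TPM scale) and Gzmb (-0.31 after quantile normalisation), and the transporter and glycolysis median became -0.0306 on the TPM scale. The cause was not tested.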

Other observations

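Gene groups not described above were also measured in TCR+MEKi against Unstimulated. Of 33 genes that restrain TCR signalling, 11 rose and 7 fell, beside 6.95% and 6.46% of all genes, against 12 and 7 in TCR. Rgs16 and Rgs1, regulators of G protein signalling, rose from 28.7 ± 2.75 to 518 ± 23.9 FPKM and from 57.8 ± 7.86 to 628 ± 15.9, at 55.2% and 67.7% of TCR. Pag1, an adaptor that recruits the kinase CSK, fell by 2.15 on the log2 scale.

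Of 26 apoptosis and survival genes, 9 rose and 3 fell, beside 6.95% and 6.46% of all genes, against 8 and 2 in TCR. Bcl2l11, encoding the pro-apoptotic protein BIM, was at 10.5, 10.5 and 10.0 FPKM at rest, 50.9, 56.0 and 54.2 in TCR and 71.7, 69.7 and 67.1 in TCR+MEKi. The TCR+MEKi samples lay above all TCR samples, with a difference of 0.37 (SE 0.06, adjusted p = 0.000128) that was under 2-fold. Bcl2l1, encoding the survival protein BCL-XL, rose from 57.5 ± 2.67 to 140 ± 5.58 FPKM, 81.7% of TCR.

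Of 33 ATF4 and unfolded protein response genes, 9 rose and none fell (median 0.75), beside 6.95% and 6.46% of all genes, against 14 and none in TCR, and none was called between TCR+MEKi and TCR. Atf4, the factor of the amino acid stress response, rose from 177 ± 5.21 to 447 ± 21.3 FPKM, and Ddit3 from 15.9 ± 1.84 to 63.4 ± 1.599. Of 30 sterol and fatty acid synthesis genes, 4 fell and none rose, beside 6.46% and 6.95% of all genes, against 6 and none in TCR, where 11.1% of all genes fell. Lss, the lanosterol synthase, fell from 21.8 ± 1.47 to 5.72 ± 0.303 FPKM.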
